A study of Citrullus lanatus with 26 samples.

Results

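miR2111 is a plant microRNA family that was followed here through ageing watermelon flesh and in a pair of watermelon genotypes. Its members were chosen by name, as every listed name that carries the family's number. In the stage set, which covers fruit age in the cultivar 97103, that is cme-miR2111a, 1 of 208 names. In the genotype set it is 41 of 1263 names, which hold 15 different patterns of counts out of 426 in that whole set. The rule picks names without a measured value, and counts serve only to tell which names of the genotype set are copies. It was set with earlier results of these data known.

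The family is known from Arabidopsis thaliana, where its level rises sharply when phosphate is short and where its target is the mRNA of a Kelch-repeat F-box protein. In the legume Lotus japonicus, miR2111 made in the shoot travels through the phloem to the root, where it lowers TOO MUCH LOVE, a Kelch-repeat F-box repressor of nodulation. A fruit is fed through the phloem, so a phloem-mobile miRNA found in flesh may have been made there or elsewhere, and these libraries do not separate the origins.

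The samples were fruit flesh of Citrullus lanatus. The stage set holds 18 libraries of subsp. vulgaris cv. 97103 at 0, 1, 5, 10, 20 and 30 DAP, the age unit of the labels, with 3 replicates each. The genotype set holds 8 further libraries, 2 each of cv. 97103 and of the germplasm PI296341FR at 10 and 30 DAP. No treatment or transgene is named for any group, and nothing in the labels ties replicates to separate fruits or plants. The p-values therefore cover the spread among libraries, which may be technical. The tables list miRNA names alone, so the tissue label could not be checked against flesh markers. Listed totals were 62050 to 153755 counts per library in the stage set and 991234 to 60765998 in the genotype set.

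In the stage set of 97103, the level of cme-miR2111a rose from 0 to 30 DAP, though not at every step. The genotype set, which holds 97103 at 10 and 30 DAP, gave no called change between those ages. The mean level was lowest at 0 DAP and highest at 30 DAP on the scaled measure. Between neighbouring ages the log2 fold change was largest from 1 to 5 DAP, while the difference in mean scaled CPM was largest from 20 to 30 DAP. Levels are CPM, counts put on a common library total, after trimmed-mean (TMM) scaling, which sets library factors from names left after extreme ratios are trimmed. The whole-table test is edgeR's quasi-likelihood test, with Benjamini-Hochberg adjusted p-values called under 0.05.

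At 0 DAP the 3 libraries stood at 81.4, 83.4 and 89.0 CPM. At 1 DAP they stood at 199.5, 71.0 and 129.1 CPM. The libraries at 1 DAP spread on both sides of those at 0 DAP, so these ages overlap. At 5 DAP the libraries held 659, 355 and 367 CPM. Each of these lay above every younger library. At 10 DAP the values were 1151, 573 and 631 CPM, and replicate 1 was again the highest, as at 1 and 5 DAP. At 20 DAP they were 635, 781 and 590 CPM, inside the range at 10 DAP. At 30 DAP they were 1630, 1060 and 2112 CPM, above every library at 20 DAP, while 1 library at 10 DAP lay above the lowest at 30 DAP.

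These levels rest on few reads. Raw counts of cme-miR2111a were 11 to 14 per library at 0 DAP, 12 to 37 at 1 DAP, 49 to 83 at 5 DAP, 86 to 153 at 10 DAP, 34 to 63 at 20 DAP and 53 to 121 at 30 DAP. A count of 11 has an exact 95% Poisson interval of 5.49 to 19.7, and one of 153 an interval of 130 to 179, for counting error only. In bulk flesh, a change in the share of cells that hold the miRNA and a change per cell cannot be told apart.

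**Figure D1:**
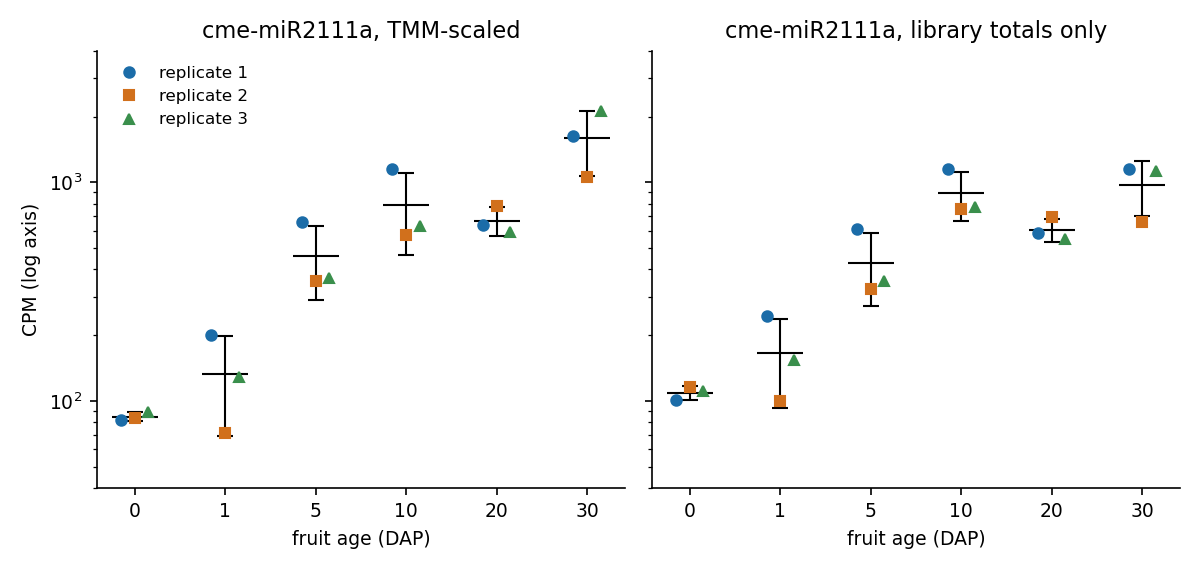
Level of cme-miR2111a in each of the 18 stage libraries (CPM, log axis) by fruit age, with TMM factors on the left and by library totals alone on the right. Marker shape and colour give the replicate, the horizontal bar the mean and the error bar the SD (n = 3). The means at 0 and 30 DAP are 84.6 and 1601 CPM with TMM factors, and the ages of 10 and 30 DAP lie closer together by totals alone.

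Ordered by level, the ages ran 0, 1, 5, 20, 10 and 30 DAP. The group means were 84.6 ± 3.96, 133 ± 64.4, 460 ± 172, 669 ± 99.7, 785 ± 318 and 1601 ± 527 CPM (SD, n = 3 each). cme-miR2111a differed between ages by the edgeR F test over all 6 of them (adjusted p = 7.46e-08), as did 85.8% of the 204 names tested.

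The oldest and the youngest flesh were compared first. cme-miR2111a was higher at 30 than at 0 DAP by 4.23 (SE 0.43, edgeR adjusted p = 2.59e-08) on the log2 scale, and all 3 older libraries lay above all 3 younger ones. In this comparison 28.4% of names were called higher. Of the 204 names 18 had a larger log2 fold change, and 1 of them carries a species prefix and family number, as do 25 of all 204. Without scaling factors the change was 3.16 (SE 0.36), with the median of all names at -1.06 in place of -0.01.

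Along the course, the step from 1 to 5 DAP was the first to be called, a rise of 1.76 (SE 0.38, edgeR adjusted p = 0.000898). At this step 27.5% of names were called higher. The difference between 0 and 1 DAP was 0.66 (SE 0.47) and was not called (edgeR adjusted p = 0.573). No name was called between those ages (0%), with 27 at an unadjusted p under 0.05 and 3 called by DESeq2. Same-numbered libraries at 0 and 1 DAP deviated together, and with the numbers as pairs, in a fit of those 6 libraries, 37 names were called. cme-miR2111a was not among them, at 0.67 (SE 0.33, edgeR adjusted p = 0.121).

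From 5 to 10 DAP the difference was 0.77 (SE 0.32) and missed the threshold (edgeR adjusted p = 0.0676), where 11.3% of names were called higher. Without replicate 1 at 5 DAP, the highest library of its age, it was 1.23 and was called (edgeR adjusted p = 0.0210). No other removal of a single library gave a call. Without replicate 1 at 10 DAP, also the highest of its age, the difference was 0.39 (edgeR adjusted p = 0.336). Without scaling factors it was 1.06 and was called (edgeR adjusted p = 0.00410).

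From 10 to 20 DAP the value was -0.22 (SE 0.33, edgeR adjusted p = 0.614). Between 5 and 20 DAP, neighbours in level though not in age, it was 0.54 (SE 0.34, edgeR adjusted p = 0.200). Neither was called, where 10.3% of names were called lower at 20 than at 10 DAP and 23% higher at 20 than at 5 DAP. Without replicate 1 at 5 DAP the latter reached 0.97 and was called (edgeR adjusted p = 0.0387). With TMM factors and all libraries, the ages of 5, 10 and 20 DAP are thus not separated by this test.

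The last step, from 20 to 30 DAP, was a rise of 1.26 (SE 0.34, edgeR adjusted p = 0.0111), where 11.3% of names were called higher. Against 10 DAP, the level at 30 DAP was higher by 1.04 (SE 0.31, edgeR adjusted p = 0.0120), where 21.1% were called higher. Both calls depend on the scaling: without factors they fell to 0.69 (edgeR adjusted p = 0.0512) and 0.13 (edgeR adjusted p = 0.637). By library totals alone, the libraries at 10 DAP held 1147, 752 and 772 CPM and those at 30 DAP 1147, 659 and 1121 CPM, so the ages overlap fully. At 10 DAP the TMM factors ran from 0.997 to 1.31, against 0.531 to 0.704 for the oldest flesh. The median of all names for 30 against 10 DAP was -0.06 with TMM factors and -0.995 without.

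Single libraries also bear on the late rise. Without replicate 3 at 30 DAP, the highest library, the change from 20 DAP was 1.00 (edgeR adjusted p = 0.0690) and from 10 DAP 0.79 (edgeR adjusted p = 0.0863). The latter was also not called without replicate 2 or 3 at 10 DAP (0.86 and 0.90, edgeR adjusted p = 0.0549 and 0.0552).

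**Figure D2:**
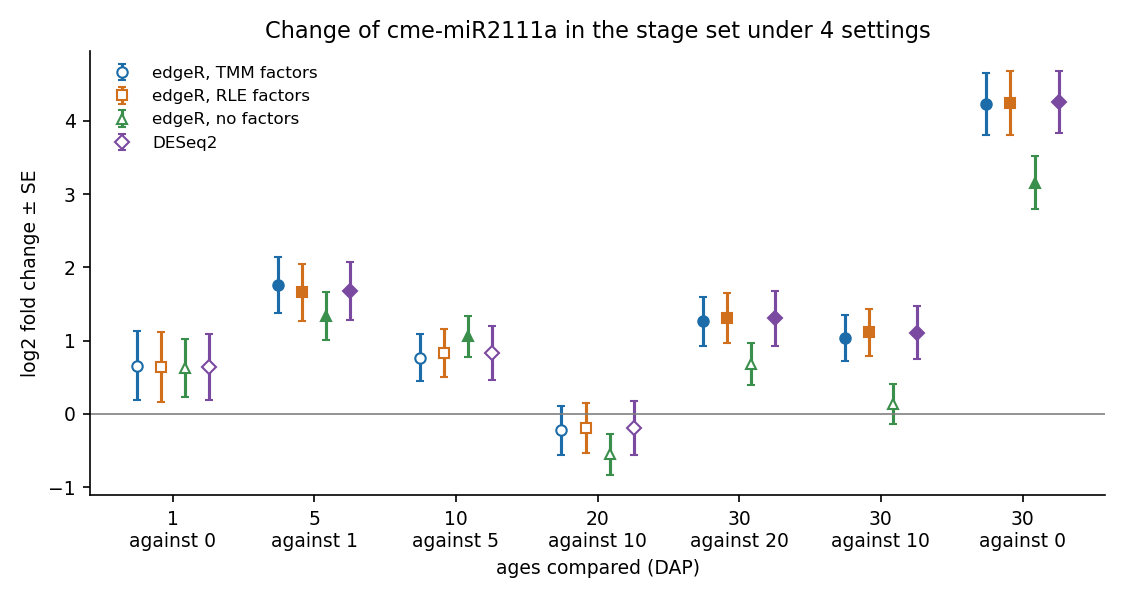
Log2 fold change of cme-miR2111a with its standard error for 7 comparisons of ages in the stage set, under 3 scalings with edgeR and under DESeq2. Filled markers have an adjusted p under 0.05. The rise from 1 to 5 DAP and the rise from 0 to 30 DAP are called under all 4 settings, while the rises from 20 and from 10 to 30 DAP are not called without factors.

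The names whose course was most like that of cme-miR2111a were sought over the 18 stage libraries by Pearson correlation of log2(CPM + 1). The 5 closest of 188 distinct patterns all carry novel_miR names, and the files give no family for them. Most names of this set are of that kind, since 25 of the 204 names tested carry another name. They were novel_miR_74 (r = 0.961), novel_miR_89 (r = 0.961), novel_miR_18 (r = 0.959), novel_miR_106 (r = 0.957) and novel_miR_67 (r = 0.946), against a median r of -0.11 over all patterns. novel_miR_89 stood at 441 ± 92.7 CPM at 0 DAP and 19249 ± 2177 CPM at 30 DAP, with 8180 ± 3136 and 8106 ± 1445 CPM at 10 and 20 DAP (SD, n = 3). Its means were thus close at 10 and 20 DAP, and cme-miR2111a had no called change between those ages. The other neighbours all had higher means at 20 than at 10 DAP. For novel_miR_74, the closest, they were 5484 ± 1399 and 3035 ± 1010 CPM. novel_miR_67 differs in its last step, with 10028 ± 468 CPM at 20 DAP and 10404 ± 830 CPM at 30 DAP. The libraries are shared by all these names and age dominates them, so the correlations describe a common course only.

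In the genotype set the family is listed 41 times under 11 species prefixes, 20 of them with mtr, the prefix of Medicago truncatula. By their counts the names fall into 2 kinds. The larger kind has 39 names in 14 patterns, among them the melon names cme-miR2111a and cme-miR2111b. In every library each of these lay between 98.8% and 105% of the count of cme-miR2111a, so they are read here as copies of 1 signal. The smaller kind is ptc-miR2111a and ptc-miR2111b, names of the poplar Populus trichocarpa, whose counts are identical to each other and far lower. The treatment of reads with more than 1 matching name is not given in the sources used here.

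The raw counts of cme-miR2111a were 962 and 2549 in 97103 at 10 DAP, and 1208 and 3709 at 30 DAP. In PI296341FR they were 382 and 693 at 10 DAP, and 133 and 764 at 30 DAP. As TMM-scaled levels, 97103 stood at 86.9 and 289 CPM at 10 DAP and at 60.2 and 150.4 CPM at 30 DAP. PI296341FR stood at 194 and 153 CPM at 10 DAP and at 41.8 and 70.7 CPM at 30 DAP. Between the ages the libraries of 97103 overlap, and those of PI296341FR do not. By library totals alone 97103 stood at 87.1 and 259 CPM at 10 DAP and at 35.9 and 61.0 CPM at 30 DAP, with no overlap. The 2 libraries of 97103 at 10 DAP differ from each other by more than the means of the genotypes at that age, 188 ± 143 and 174 ± 29.3 CPM (SD, n = 2).

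No miR2111 name was called in any comparison of the genotype set. For cme-miR2111a, 30 against 10 DAP was -0.84 (SE 1.13, edgeR adjusted p = 0.648) in 97103, where 19.3% of names were called, and -1.62 (SE 1.14, edgeR adjusted p = 0.344) in PI296341FR, where 11.4% were called. All of those calls were lower at 30 DAP, and the median of all names was -0.75 and -1.18, so TMM factors did not set the names level between these ages. Copies weigh in these numbers, since 135 of the 243 calls in 97103 and 135 of the 144 in PI296341FR were miR395 names in 5 count patterns. With 1 name per count vector 24 names were called lower and 0 higher in 97103, with the median at -0.59. In PI296341FR 33 were then called higher and 0 lower, with the median at -0.14. The direction of the calls turned with the scaling. With RLE factors 74 names were called higher and 33 lower in 97103, with the median at 0.47, and 65 higher and 0 lower in PI296341FR, with the median at -0.51. DESeq2 called 276 higher and 48 lower in 97103, and 64 higher and 0 lower in PI296341FR. PI296341FR against 97103 was -0.12 (SE 1.13, edgeR adjusted p = 0.983) at 10 DAP and -0.90 (SE 1.13, edgeR adjusted p = 0.693) at 30 DAP, where 0.0793% and 25.9% of names were called. The interaction of genotype and age was -0.79 (SE 1.60, edgeR adjusted p = 0.954), where 0.159% were called. With standard errors above 1 on the log2 scale, differences of 1 log2 unit in either direction were not detectable, and these values do not show that the genotypes have equal levels.

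The direction of cme-miR2111a in this set also moves with the scaling, though not for age in PI296341FR. The TMM factors ran from 0.406 for a library of 97103 at 30 DAP to 3.21 for a library of PI296341FR at 30 DAP. Without factors the genotype difference at 30 DAP was 1.15, not called, with the median of all names at 1.70. With TMM factors that median was -0.03.

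**Figure D3:**
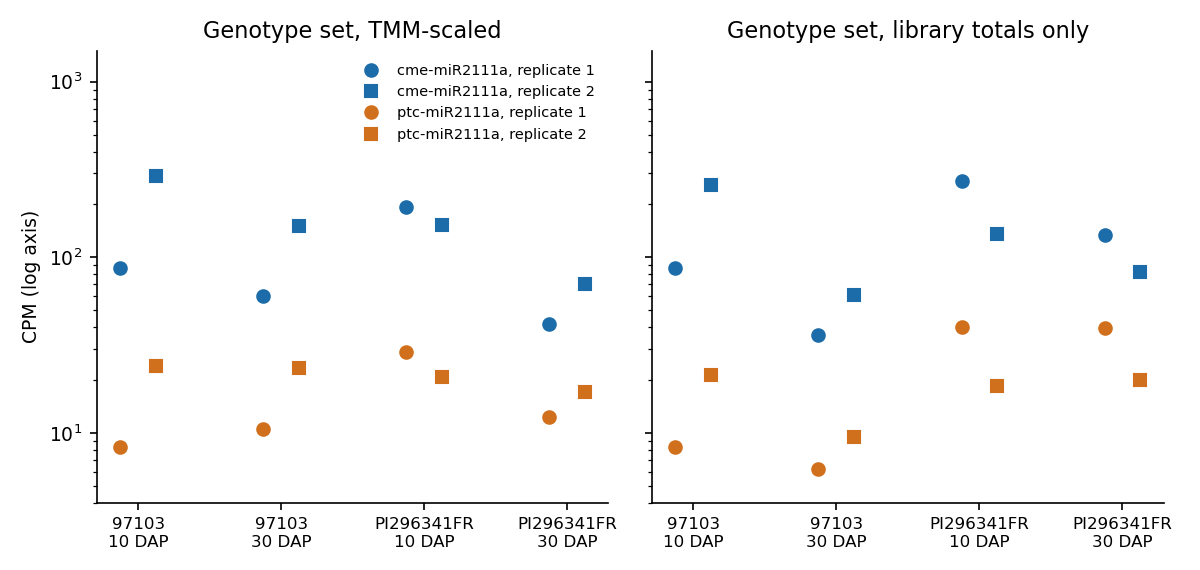
Level of cme-miR2111a and ptc-miR2111a in each of the 8 genotype libraries (CPM, log axis), with TMM factors on the left and by library totals alone on the right. Circles are replicate 1 and squares replicate 2. The levels of cme-miR2111a overlap between genotypes at each age with TMM factors, and ptc-miR2111a lies below cme-miR2111a in every library.

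The ratio of ptc-miR2111a to cme-miR2111a counts is given next for each library. This comparison was chosen after the values had been seen, and it does not depend on scaling, since both counts come from the same library. It is a ratio of 2 names and not a part of a total, and whether their counts are separate reads is not given. In 97103, ptc-miR2111a had 92 and 211 counts at 10 DAP, which is 9.56% and 8.28% of cme-miR2111a. At 30 DAP it had 210 and 578 counts, or 17.4% and 15.6%. In PI296341FR it had 57 and 94 counts at 10 DAP, or 14.9% and 13.6%, and 39 and 186 counts at 30 DAP, or 29.3% and 24.3%. The ratio was lowest in young 97103 flesh and highest in old PI296341FR flesh, and no group of 2 libraries overlapped another.

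The ratio was 1.86-fold higher at 30 than at 10 DAP, averaged over the genotypes, a mean log2 difference of 0.90. It was 1.61-fold higher in PI296341FR than in 97103, averaged over the ages, a mean log2 difference of 0.69. Two-sided exact permutation tests within genotype and within age each gave p = 0.0556 (also 0.0556 adjusted over the 2 tests), the smallest that the 36 permutations of 8 libraries allow, so neither could pass 0.05 and no difference is called. Library totals were 9849871 to 11046466 counts in the group with the lowest ratio and 33672716 to 60765998 in 97103 at 30 DAP. In every group the library with the smaller count of cme-miR2111a had the higher ratio. The lowest total, 991234, belongs to the library with the highest ratio. The part of depth in this ratio was not tested.

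**Figure D4:**
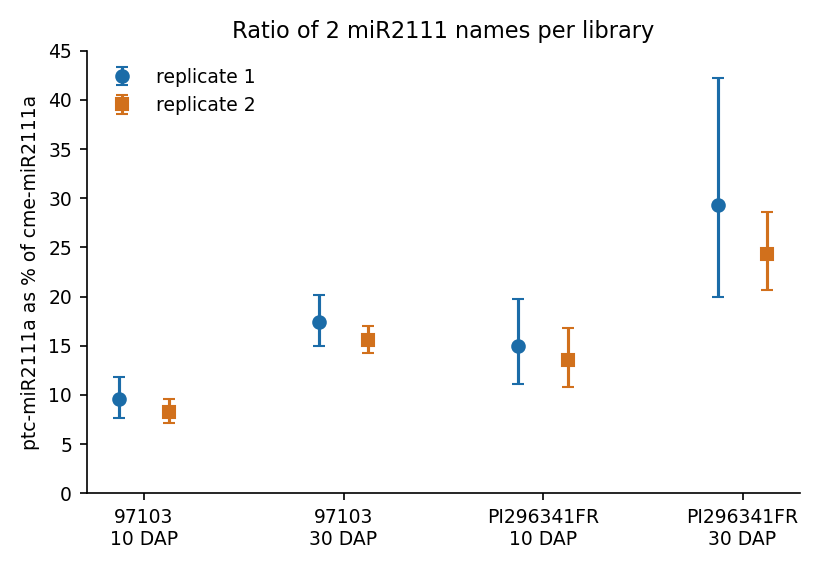
Count of ptc-miR2111a as a percentage of the count of cme-miR2111a in each genotype library, with exact 95% binomial intervals that cover counting error only and assume that the 2 counts are separate reads. The points run from 8.28% in 97103 at 10 DAP to 29.3% in PI296341FR at 30 DAP, and the groups do not overlap in their points, although some intervals do.

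The cultivar 97103 at 10 and 30 DAP is in both sets, and there cme-miR2111a had a called difference of 1.04 in the stage set and an uncalled one of -0.84 in the genotype set. Both values depend on the scaling. The stage value was 0.13 without factors and 1.11 with RLE factors, and the genotype value -1.84 and 0.35. The test of the discrepancy between the sets joined the 10 libraries of both over the 18 names that both list. Totals and factors came from these 18 names alone, so the scaling is rough. The difference was -2.33 (SE 1.11) and missed the threshold (edgeR adjusted p = 0.0603), where 27.8% of the shared names were called. The median of the 18 names was -2.44, so cme-miR2111a lay 0.11 above it. With RLE factors the difference was -0.71 (edgeR adjusted p = 0.424), with the median at -0.73. Without factors it was -2.22 and was called (edgeR adjusted p = 0.0264), with the median at -2.25.

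Of the other families of the phosphate and sulphate list, miR399 and miR827, the phosphate starvation families that target PHO2-type and SPX-type mRNAs, had no name in the tables used here. The same holds for miR398, the copper family of the phloem-mobile list. miR395, which targets ATP sulfurylases and a sulphate transporter and is induced by sulphate shortage, has 135 names in 5 count patterns in the genotype set and none in the stage set. In that set all 135 were called lower at 30 than at 10 DAP in 97103, with a median of -2.48, and all 135 in PI296341FR, with a median of -2.93. With TMM factors 19.3% and 11.4% of all names were called lower in these comparisons, that is 243 and 144 names. Both numbers include the 135 miR395 names, so these shares are not a background apart from the family. With RLE factors and with DESeq2 most calls were higher instead, 0 of them lower in PI296341FR. The 135 names are near copies and not separate evidence. None was called between genotypes or in the interaction.

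The most abundant miR395 name, cme-miR395f, had counts of 84 and 36 in 97103 at 10 DAP and 21 and 24 at 30 DAP. In PI296341FR it had 16 and 104 at 10 DAP and 6 and 24 at 30 DAP. Its changes were -2.52 (SE 0.92, edgeR adjusted p = 0.0484) and -2.92 (SE 0.95, edgeR adjusted p = 0.0300). With RLE factors they were -1.53 (edgeR adjusted p = 0.227) and -2.26 (edgeR adjusted p = 0.155), neither called. DESeq2 gave adjusted p-values of 0.179 and 0.0971, and edgeR with 1 name per count vector 0.0941 and 0.759. In 97103 the call was also lost without replicate 1 at 10 DAP (edgeR adjusted p = 0.182) and without replicate 1 or 2 at 30 DAP (0.221 and 0.291). In PI296341FR it was lost without factors (edgeR adjusted p = 0.185), without replicate 2 at 10 DAP (0.319) and without replicate 1 or 2 at 30 DAP (0.315 and 0.247). Over the same ages and libraries miR2111 had 0 of 41 names called in either genotype, where 19.3% and 11.4% of all names were called. Of these 41 names 39 are near copies and the other 2 are identical, so this 0 sets no contrast with miR395. The difference between the families was not tested.

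Over the genotype libraries, the 5 patterns closest to cme-miR2111a all belong to miR167, a family that targets auxin response factors. Their names were osa-miR167e-5p, aly-miR167d-5p, zma-miR167i-5p, cca-miR167 and rco-miR167c, each with r = 0.936 over 8 libraries, against a median r of 0.29 over 410 patterns. These names are near copies of 1 another, so they amount to 1 neighbour. osa-miR167e-5p stood at 343 ± 338 CPM in 97103 and 354 ± 99.0 CPM in PI296341FR at 10 DAP, and at 204 ± 138 and 66.3 ± 0.0455 CPM at 30 DAP (SD, n = 2). None of the novel_miR neighbours from the stage set can be followed here, since the novel_mir names of this set have a numbering of their own.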

How the data were processed

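The authors deposited 1 table of raw counts per miRNA name for each library, with no normalization. Trizol RNA of flesh under 100 nt went into Illumina small RNA libraries, per the labels' protocols. Tools listed in the submitters' processing notes are fastp and BWA, with no role or version. A genome build, a miRNA reference and a rule for counting are not given in the sources used.

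Names were filtered with filterByExpr (minimum count 10), which kept 204 of 208 and 1261 of 1263 names, among them all 1 and 41 miR2111 names. Each set had its own fit over group means with TMM factors (edgeR 4.0.16, R 4.3.3), and standard errors came from the fitted weights. DESeq2 1.42.0 was an alternative. Intervals cover counting error at 95%. Members and lists were chosen with earlier results of these data known. Named outside the family were the 5 names most like cme-miR2111a in each set and the most abundant name of each listed family.

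Same-numbered libraries correlated in their deviations from the group means at 0 and 1 DAP (r = 0.23, 0.76 and 0.67), the only pair of ages in the stage set at which every number passed 0.1. No replicate pair agreed within sampling noise. The labels give no shared litter, batch or day.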

Additional observations from a re-analysis of the deposited data

How the results depend on the processing

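The rise of cme-miR2111a from 0 to 30 DAP and from 1 to 5 DAP was called under every alternative run, and without single libraries ranged from 3.97 to 4.44 and from 1.37 to 2.20. The test over all ages was likewise called throughout (adjusted p 2.70e-08 to 1.72e-06 without single libraries). Without scaling factors, 30 against 10 DAP gave 0.13 and 30 against 20 DAP 0.69, neither called, while 10 against 5 DAP gave 1.06 and the test of set by age -2.22 (edgeR adjusted p = 0.0264), both called. 10 against 5 DAP was also called with totals and factors taken without the 5 most abundant names (0.85) and with the replicate block (0.76), although replicate numbers are not pairs at those ages. The block changed no other call of cme-miR2111a. Without single libraries the ranges were 0.79 to 1.42 for 30 against 10 DAP, 1.00 to 1.47 for 30 against 20 DAP, 0.39 to 1.23 for 10 against 5 DAP, 0.23 to 1.02 for 1 against 0 DAP, 0.48 to 0.97 for 20 against 5 DAP and -0.41 to 0.15 for 20 against 10 DAP.

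In the genotype set no value of cme-miR2111a was called under any alternative, and signs were unstable. 30 against 10 DAP in 97103 became 0.35 with RLE factors and 0.35 with DESeq2. PI296341FR against 97103 at 10 DAP became 0.15 with RLE factors and with DESeq2, 0.23 without factors, 0.18 with the replicate block and 0.28 with 1 name per count vector. At 30 DAP it became 1.15 without factors and 0.42 with 1 name per count vector, and the interaction became 0.92 and 0.14. Without single libraries, where a lone library is assumed to vary like the other groups, the ranges were -1.46 to 0.62 for age in 97103, -2.05 to -1.30 for age in PI296341FR, -0.74 to 1.00 and -1.92 to 0.54 for genotype at 10 and 30 DAP, -1.90 to 0.19 for the interaction and -2.70 to -0.81 for set by age. The ptc-miR2111a ratio gave 0.83 to 0.97 for age and 0.62 to 0.76 for genotype. As no groups overlap, no sign can turn. The cause of these moves was not tested.

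Counts of calls over all names moved by over 1.5 times. Calls without factors numbered 171 in place of 90 for 30 against 10 DAP, 70 in place of 40 for 20 against 10 DAP and 93 in place of 40 for 30 against 20 DAP, and for 30 against 0 DAP they split 31 higher and 135 lower in place of 58 and 80. Without single libraries they fell to 48 for 10 against 5 DAP (79 with all) and 22 for 20 against 10 DAP (40). With all libraries they ran in the genotype set from 24 to 364 (243) and 0 to 145 (144) for age, 0 to 53 (1) and 99 to 603 (327) for genotype, 2 to 180 (2) for the interaction, and 0 to 13 (5) for set by age. At 30 DAP the genotypes' same-numbered libraries deviated oppositely (r = -0.39). Crossed pairs follow that sign, so the 403 calls of 1256 (201 as labelled) test nothing. Depth limits the values at 0 and 1 DAP.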
